A study of Mus musculus with 2 samples.

Results

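Collagen chain genes encode the subunits of the collagens, the proteins that give the skin its tensile strength. They were taken by name from the table of read counts as every symbol made of Col, a type number, the letter a and a chain number. Of 24421 gene symbols listed, 44 had such a name, and 42 of these exceeded 3 counts in at least 1 library. The rule used no difference between the libraries. Col6a4 (3 and 8 counts in control and stretched skin) and Col2a1 (8 and 6 counts) were the members nearest to this limit, and Col10a1 (1 and 2 counts) lay just outside it. Col9a1 had 0 counts in both libraries, which allows up to 0.212 CPM (counts per 1000000 counts of the library) in control skin against 0.258 CPM in stretched skin.

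Each collagen is a triple helix of chains, either identical or products of different genes, and the chains must be hydroxylated, folded, secreted, trimmed and crosslinked before they bear load. Fibrillar collagens form the rope-like bundles of the dermis, and fibril-associated collagens sit on their surface. Network collagens form sheets such as the basement membrane under the epidermis and around vessels, muscle fibres and nerves, beaded filaments of type VI lie next to cells, and transmembrane collagens stay anchored in the cell surface. In the skin most fibrillar chains come from fibroblasts, whereas keratinocytes make much of the collagen of the dermal-epidermal junction.

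RNA was taken from the whole layer of back skin of wild type C57BL6/J mice, 8 weeks old and female by the methods of the study. There was 1 library of skin stretched for 5 days by a device glued to the back and 1 library of non-stretched skin at the same day. The strain is taken here as 33% at the start, raised daily. The methods of these libraries name no strain, and 33% is the only strain the study describes with 5 days. Skin attached to the device was discarded. How many mice gave each library and whether their control mice wore the device is not stated, although the controls of the hair growth experiments had none. The methods describe mice of this age in the resting phase (telogen) of the hair cycle, and also mice depilated at this age and stretched later, and the labels of these libraries give neither an age nor a depilation. The control library held 14152379 counts and the stretched library 11648655. With 1 library per condition there is no replicate check and no p-value, the 95% intervals below cover counting error only, and a difference between the libraries cannot be told apart from a difference between the mice or the pieces of skin. In whole skin, fewer cells of a type and less RNA per cell cannot be told apart either. All 8 keratinocyte markers, all 8 fibroblast markers and all 10 striated muscle markers were measured in both libraries, which by itself does not verify the tissue.

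Collagen chain genes took a larger share of the stretched library. Together they held 4.74% of the counts in control skin against 8.71% in stretched skin, a 1.84-fold higher level (interval 1.83 to 1.84). Col1a1, Col1a2 and Col3a1 alone rose from 3.89% to 7.49% of all counts, and without them the other members still summed to a 1.43-fold higher level (interval 1.42 to 1.44). The single genes went both ways. A gene was counted as higher or lower where the interval of its log2 ratio of CPM, stretched over control, lay wholly above or below 0. By this measure 24 of the 42 members (57.1%) were higher and 6 (14.3%) were lower. Among the 16255 genes above 3 counts these shares were 18.1% and 33.5%. Intervals included 0 for 12 members and for 7858 of all genes. Such a call also depends on how many counts a gene has, and the shares of all genes are given for library totals only. The median log2 ratio was 0.31 over the members and -0.12 over all genes. By the rule of the study, which asks for a fold change no smaller than 2, or no larger than 0.5, and a product of the FPKM values (counts per kilobase of exon and per 1000000 counts) above 10, 24 members could be called with 1 added to each FPKM. Col4a6, with 2.24 and 2.15 FPKM, passed this filter only because of the added 1. Of the 24, Col1a1 and Col8a1 were upregulated and Col11a1 was downregulated, against background shares of 2.61% upregulated and 2.44% downregulated among the 10910 genes that passed the filter.

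**Figure D1:**
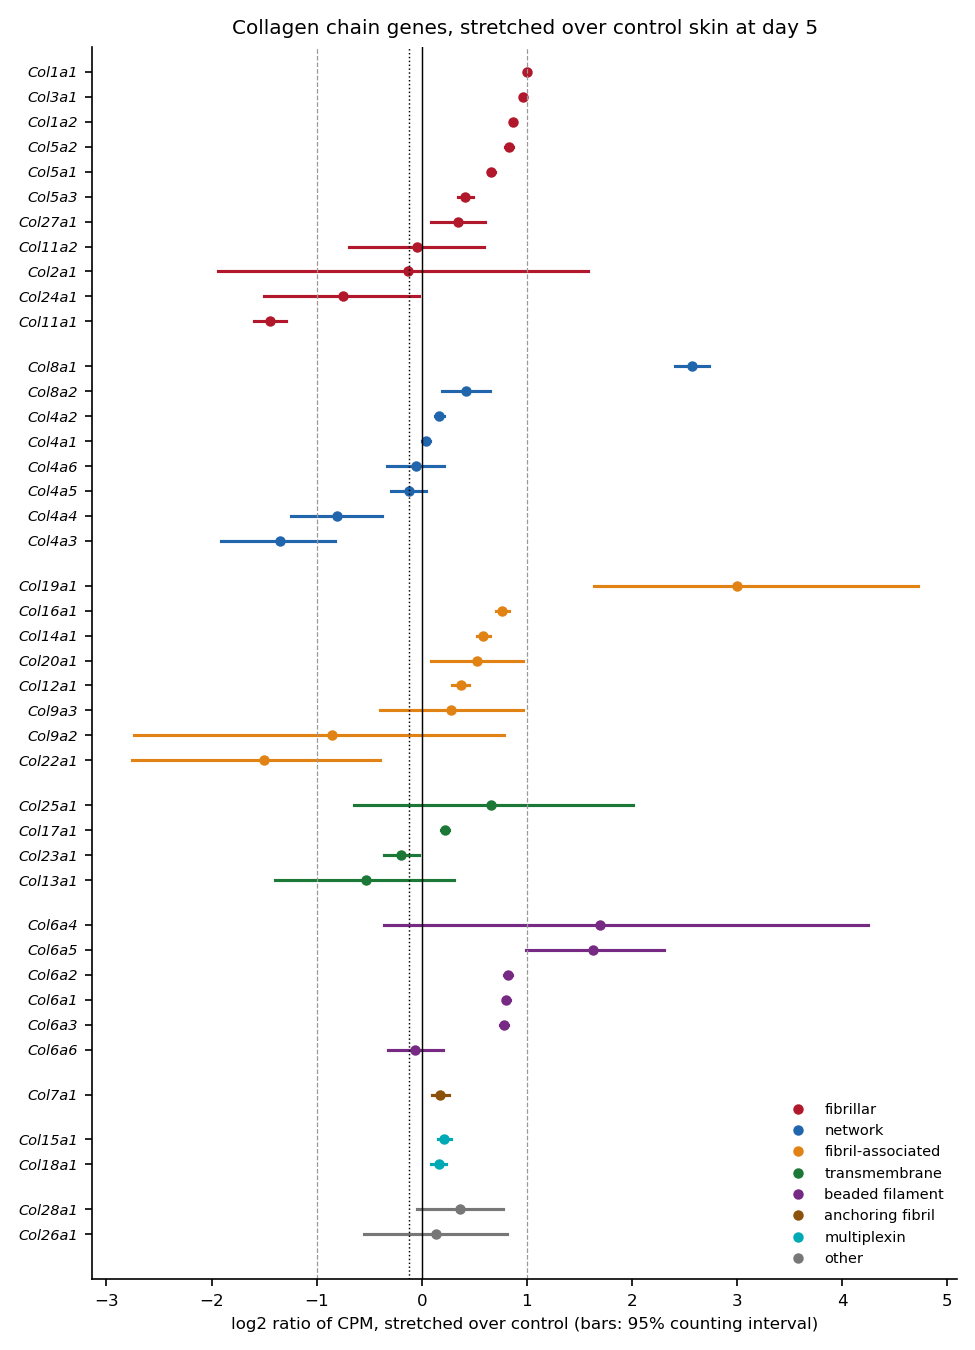
Log2 ratio of CPM, stretched over control, of each of the 42 collagen chain genes, ordered within their class, with 95% counting intervals as bars. The solid line marks 0, the dotted line the median of all genes (-0.12) and the dashed lines a 2-fold difference; Col19a1 (8.02-fold) and Col8a1 (5.94-fold) lie farthest to the right and Col22a1 (-1.50) and Col11a1 (-1.45) farthest to the left.

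The classes differed in size of change. The summed counts of the 11 fibrillar genes were 1.91-fold higher in stretched skin (interval 1.90 to 1.91), and those of the 8 fibril-associated genes were 1.52-fold higher (1.48 to 1.56). The sums of the 8 network genes (1.13-fold, interval 1.11 to 1.15) and of the 4 transmembrane genes (1.15-fold, interval 1.12 to 1.17) were less far from 1. On the log2 scale the fibrillar sum changed by 0.76 more than the network sum (Wald interval 0.73 to 0.78) and by 0.33 more than the fibril-associated sum (0.29 to 0.37). The second difference rests on Col1a1, Col1a2 and Col3a1, since the other 8 fibrillar genes summed to a 1.55-fold higher level (interval 1.52 to 1.57), whose interval overlaps that of the fibril-associated sum. Network and transmembrane sums differed by -0.02, with an interval that included 0 (-0.07 to 0.02). Beaded filament genes, with a 1.74-fold higher sum (interval 1.72 to 1.76), lay close to the fibrillar genes, while the anchoring fibril gene (1.13-fold) and the 2 multiplexin genes (1.14-fold) lay with the network genes. A sum is ruled by its most abundant genes, and the median of single genes ordered the classes differently. It was 0.41 for fibrillar, 0.45 for fibril-associated, -0.01 for network and 0.01 for transmembrane genes, and 0.81 for the 6 beaded filament genes. The medians of the network and transmembrane genes lie near 0 and their signs changed with the scaling. Genes are not replicates, so the class medians were not tested against each other, and the Wald intervals between sums cover counting error only.

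**Figure D2:**
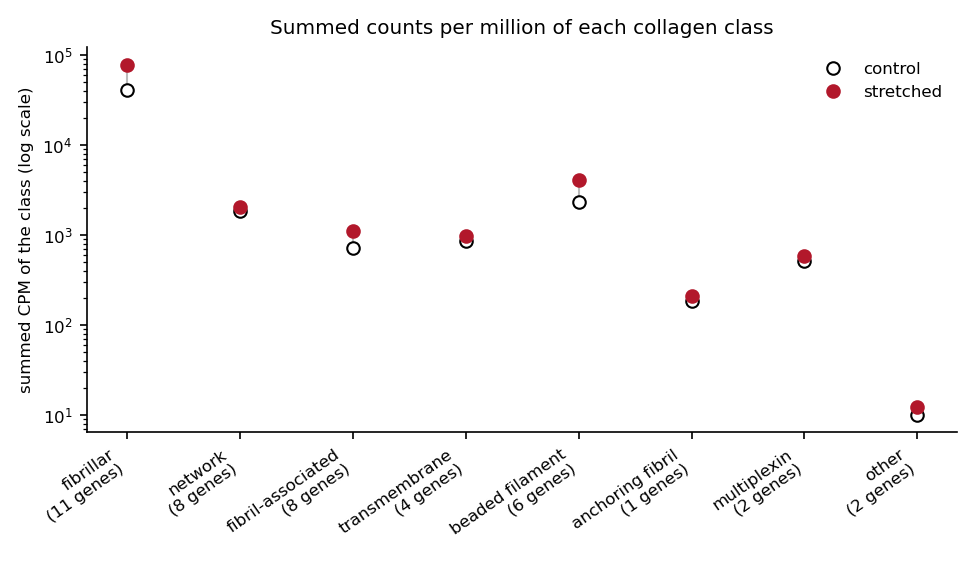
Summed CPM of each collagen class on a log scale, with control skin as open circles and stretched skin as filled circles. The fibrillar class stands at 40929 CPM in control skin against 77999 CPM in stretched skin, far above the next class, the beaded filament genes at 2347 and 4083 CPM.

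Col1a1, Col1a2 and Col3a1 were among the most counted genes of the whole table. Col3a1, which encodes the single chain of type III collagen, a fibril protein of elastic tissues and early repair, ranked first in both libraries. It lies on chromosome 1 of mm10 from 45311538 to 45349706 on the plus strand, and had 199708 counts (14111 CPM) in control skin against 319618 counts (27438 CPM) in stretched skin, a log2 ratio of 0.96 (interval 0.95 to 0.97). Col1a1 and Col1a2 encode the chains of type I collagen, the main fibril of dermis, tendon and bone. Col1a1, on chromosome 11 from 94936224 to 94953042, rose from 168121 to 277385 counts (log2 ratio at the threshold of 1, interval 0.99 to 1.01) and from rank 4 to rank 2. The gene was no longer upregulated when keratin, keratin-associated and muscle genes were left out of the library totals. Col1a2, on chromosome 6, rose from 183341 to 275799 counts (0.87, interval 0.86 to 0.88). Neither Col3a1 nor Col1a2 reached the threshold, although Col3a1 passed it under 4 of the scalings tried.

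The bases in front of Col3a1 are shown because it held the most counts of all members. They are the 150 bases directly before the annotated start in RefSeq (GRCm38.p6, plus strand, chr1:45311388-45311537), written 5′ to 3′ with a TATAAA match in capitals.
Col3a1: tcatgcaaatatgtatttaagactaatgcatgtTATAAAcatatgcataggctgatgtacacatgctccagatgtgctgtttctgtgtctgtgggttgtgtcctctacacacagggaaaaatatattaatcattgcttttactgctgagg
Counted from the start, with -1 as the last base before it, the match begins at position -117. Among the 33 members with a promoter in the RefSeq table, 3 held TATAAA or its reverse complement TTTATA in this window (9.09%), against 7.57% of all 32851 promoters and 4.79% of the promoters of 12225 measured genes.

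Type V collagen, which starts fibrils of type I and limits their width, followed the same direction. Col5a2, which lies tail to tail with Col3a1 at a distance of 24614 bases, had 9911 counts in control skin against 14482 in stretched skin (0.83, interval 0.79 to 0.86). Col5a1 rose from 13000 to 16908 counts (0.66, interval 0.63 to 0.69) and Col5a3 from 3292 to 3612 (0.41, interval 0.35 to 0.48). All 3 type V genes were thus higher, with ratios below those of the type I and III genes, although the intervals of Col5a2 and Col1a2 met. Col27a1, a fibrillar chain best known from cartilage, had 247 counts in control skin against 258 in stretched skin (0.34, interval 0.09 to 0.60).

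The other fibrillar genes went down or could not be resolved. Col11a1 encodes a chain of type XI collagen, which starts the thin fibrils of cartilage, and its gene on chromosome 3 of mm10 spans 114030540 to 114220718 (plus strand). The gene fell from 1509 counts (107 CPM) in control skin to 456 (39.1 CPM) in stretched skin, a log2 ratio of -1.45 (interval -1.60 to -1.29), the only downregulated member. With a limit of 100 in place of 10 in the expression filter it was not called. With CPM in place of FPKM Col4a3 was called downregulated as well, and Col6a5 was called upregulated. The partner gene Col11a2 had 49 and 39 counts (-0.05, interval -0.69 to 0.59). Col24a1, with 51 and 25 counts, had an interval that ended just below 0 (-0.75, interval -1.50 to -0.03) and included 0 under 4 of the scalings. Col2a1, the main cartilage collagen gene, was near the limit of detection with 8 and 6 counts. Beside Col11a1, of the 6 cartilage and bone markers the bone gene Ibsp and the cartilage gene Matn1 were at 0 in both libraries and Ihh had 2 and 3 counts. Runx2, a transcription factor of bone and late cartilage, had 145 and 149 counts (0.32, interval -0.02 to 0.66). Sox9, a transcription factor of cartilage that hair follicle epithelium also uses, fell from 941 to 509 counts (-0.61, interval -0.76 to -0.45), and Acan, which encodes the proteoglycan aggrecan, from 234 to 89 (-1.11, interval -1.48 to -0.76). Their part in the fall of Col11a1 was not tested.

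The bases in front of Col11a1 are shown as those of the downregulated member (GRCm38.p6, plus strand, chr3:114030390-114030539), with matches to GGGCGG and to CCAAT, or to their reverse complements CCGCCC and ATTGG, in capitals.
Col11a1: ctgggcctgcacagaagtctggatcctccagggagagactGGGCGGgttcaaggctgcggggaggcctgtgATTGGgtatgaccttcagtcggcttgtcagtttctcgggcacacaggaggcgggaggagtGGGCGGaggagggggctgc
GGGCGG begins at positions -110 and -19 and ATTGG at -79. CCAAT or ATTGG stood in this window of 7 of the 33 members (21.2%), against 24.5% of all promoters and 27.2% of those of measured genes.

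The network class held genes that rose, fell and hardly moved. Col8a1 encodes a chain of type VIII collagen, a short-chain collagen that builds lattices in vessel walls and under the endothelium of the cornea. It lies on chromosome 16 of mm10 from 57624258 to 57754737 on the minus strand, and had 371 counts (26.2 CPM) in control skin against 1814 (156 CPM) in stretched skin. This was a log2 ratio of 2.57 (interval 2.41 to 2.74), or 5.94-fold, and it moved the gene from rank 7518 to rank 1031 of the table. Col8a2, the second type VIII gene, had 308 and 339 counts (0.42, interval 0.19 to 0.65). The 8 endothelial markers had a median log2 ratio of 0.40 and went from a summed 269 CPM to 356 CPM, with 4 higher, led by Tie1 (0.74), Vwf (0.65) and Cdh5 (0.57), and 1, Kdr (-0.37), lower (12.5%), against 18.1% higher and 33.5% lower of all genes. Of the 6 myofibroblast markers, Cthrc1 rose from 127 to 614 counts (2.55, interval 2.28 to 2.84), Tnc from 1456 to 4497 (1.91) and Postn from 8261 to 15913 (1.23), whereas Acta2 stood at 0.14 and Tagln at -0.27. Their summed level was 1186 CPM in control skin against 2294 CPM in stretched skin, and their part in the rise of Col8a1 was not tested.

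The bases in front of Col8a1 are shown as those of the member with the largest called rise (GRCm38.p6, minus strand, chr16:57754738-57754887), with GGGCGG or CCGCCC in capitals.
Col8a1: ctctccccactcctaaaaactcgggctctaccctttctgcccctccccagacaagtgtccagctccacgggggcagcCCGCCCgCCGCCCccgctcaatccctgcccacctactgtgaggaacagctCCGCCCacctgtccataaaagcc
CCGCCC begins at positions -73, -66 and -23. GGGCGG or CCGCCC stood in this window of 19 of the 33 members (57.6%), against 28.6% of all promoters and 49.4% of those of measured genes. A match describes the sequence only.

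Type IV collagen, the sheet of every basement membrane, is made from 6 genes that lie in head-to-head pairs on 3 chromosomes. Col4a1 and Col4a2 give the widespread form, and their starts on chromosome 8 lie 21 bases apart. Col4a1 had 14577 counts in control skin against 12348 in stretched skin, a log2 ratio of 0.04 (interval 0.01 to 0.08), which included 0 with keratin and muscle genes left out of the totals. Col4a2 had 9550 and 8821 counts (0.17, interval 0.12 to 0.21). The basement membrane genes with the most counts thus stayed close to the control level while the sum of the fibrillar genes was 1.91-fold higher. Col4a5 and Col4a6, whose products also meet in the basement membrane of the epidermis, had 672 and 507 counts (-0.13, interval -0.29 to 0.04) and 253 and 200 counts (-0.06, interval -0.33 to 0.21). The third pair was lower. Col4a3 fell from 121 to 39 counts (-1.35, interval -1.91 to -0.82), and Col4a4, whose start lies 72 bases from it on chromosome 1, fell from 144 to 68 (-0.80, interval -1.24 to -0.38). Both chains are best known from kidney and lung basement membranes. They were too weak to pass the expression filter of the study, and 5.65% of the exonic bases of Col4a3 overlap C430014B12Rik on the other strand.

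**Figure D3:**
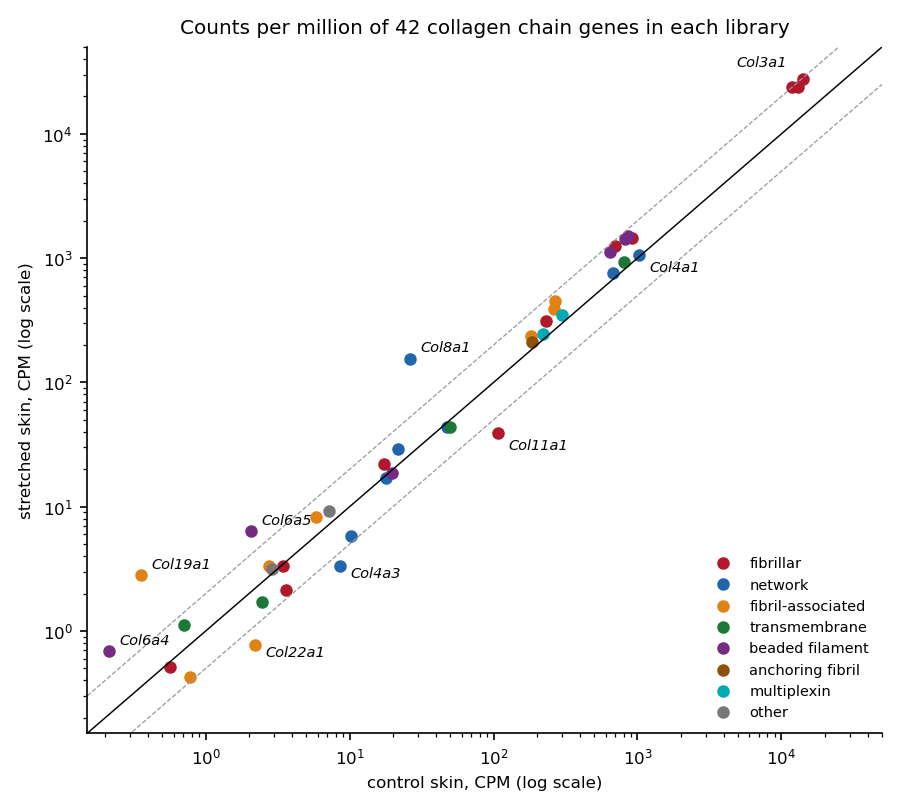
CPM of the 42 collagen chain genes in control skin (x axis) and stretched skin (y axis), both on log scales, coloured by class, with the line of equal level and dashed lines at a 2-fold difference. The 3 points at the upper right are Col1a1, Col1a2 and Col3a1, the network genes include Col8a1 above and Col4a3 below the dashed lines, and Col4a1 lies on the line of equal level.

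Fibril-associated collagens coat fibrils and link them to other matrix. The well measured members were higher in stretched skin. Col16a1, found in the dermis near the epidermis, rose from 3757 to 5259 counts (0.77, interval 0.71 to 0.83), Col14a1 from 3704 to 4576 (0.59, interval 0.52 to 0.65) and Col12a1 from 2585 to 2749 (0.37, interval 0.29 to 0.45). The last 2 encode related coats of type I fibrils in skin and tendon. Col20a1, with 82 and 97 counts, was higher on fewer reads (0.52, interval 0.08 to 0.97). The 2 measured type IX genes, partners of cartilage fibrils, had wide intervals that included 0, with 11 and 5 counts for Col9a2 (-0.86) and 39 and 39 counts for Col9a3 (0.28). Both extremes of the class had few reads.

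Col19a1, a collagen of the basement membrane zone with a role in smooth muscle and in synapses, had the largest ratio of all members. It had 5 counts in control skin against 33 in stretched skin, an 8.02-fold higher level with a counting interval from 3.11-fold to 26.3-fold. Col22a1, known from the junction of muscle and tendon, had 31 and 9 counts (-1.50, interval -2.76 to -0.40). Neither passed the expression filter of the study. The striated muscle markers went both ways, from -4.57 for Myh4, the fast myosin gene with 91029 and 3156 counts, to 1.46 for Myh2, with Myh1 (1.10) and Mb (1.09) also higher and Ckm (-1.05) and Tnnt3 (-0.53) also lower, and their summed level was 28048 CPM in control skin against 22937 CPM in stretched skin. All 8 markers of developing muscle and the neuromuscular junction were higher, against 18.1% of all genes, from 1.24 for Myod1 to 6.58 for Myh3, followed by Chrng (6.13) and Myh8 (4.47), with a summed 81.4 CPM in control skin against 1190 CPM in stretched skin. The part of the muscle layer in the values of Col19a1 and Col22a1 was not tested.

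Of the transmembrane collagens, Col17a1 held most of the counts. It encodes the hemidesmosome protein that anchors basal keratinocytes, and it is also used by hair follicle stem cells. It had 11405 counts (806 CPM) in control skin against 10922 (938 CPM) in stretched skin, a log2 ratio of 0.22 (interval 0.18 to 0.26). Col23a1 had 706 and 508 counts (-0.19, interval -0.36 to -0.03), and its interval included 0 under 4 of the scalings. Without Col17a1 the sum of the class turned from 0.20 to -0.19 (interval -0.35 to -0.03), so the class value rests on this gene. The keratinocyte markers went both ways beside it, with Krt14, a keratin of basal cells, at 0.28, Krt5, its partner, at 0.01, Krt1 at 0.15, Krt10 at 0.02, Trp63 at -0.49, Krt15, a keratin of basal and hair follicle stem cells, at -0.46 and the junction genes Dsp at -0.67 and Dsg3 at -0.79, and their summed level was 17580 CPM in control skin against 17213 CPM in stretched skin. Col13a1 and Col25a1, whose products take part in the contact of nerve and muscle, were measured on few reads, with 35 and 20 counts (-0.53, interval -1.40 to 0.31) and 10 and 13 counts (0.66, interval -0.64 to 2.01). Neither difference was detectable at this depth, also beside the rise of the neuromuscular markers Chrng, which had 4 and 231 counts, and Musk, which had 13 and 48.

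Type VI collagen forms beaded filaments around cells from 3 main chains. Col6a1 rose from 12236 to 17574 counts (0.80, interval 0.77 to 0.84), Col6a2 from 11518 to 16743 (0.82, interval 0.79 to 0.85) and Col6a3 from 9151 to 12949 (0.78, interval 0.74 to 0.82). The 3 ratios lay within each other's intervals or close to them. Col6a1 and Col6a2 are neighbours on chromosome 10, whereas Col6a3 lies on chromosome 1. Of the alternative chains, which lie together on chromosome 9, Col6a5 rose from 29 to 74 counts (1.63, interval 0.99 to 2.30), and Col6a6 had 278 and 219 counts (-0.06, interval -0.33 to 0.20). Col6a4, with 3 and 8 counts, had a ratio of 3.24-fold with an interval from 0.78-fold to 19.0-fold.

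The remaining members were little changed or measured on few reads. Col7a1, the gene of the anchoring fibrils that tie the epidermis to the dermis, had 2630 and 2443 counts (0.17, interval 0.09 to 0.25). The multiplexin genes Col15a1 and Col18a1, which encode basement membrane proteins that can release fragments such as endostatin, had 4220 and 4035 counts (0.22, interval 0.15 to 0.28) and 3110 and 2859 counts (0.16, interval 0.09 to 0.23). Their values lay in the range of Col4a1, Col4a2 and Col17a1, genes of basement membranes and the dermal-epidermal junction with more counts. Col4a5 (-0.13) and Col4a6 (-0.06), with fewer counts, lay below this range, as did Col4a3 and Col4a4, while Col19a1 lay above it on few reads. Col28a1, a collagen of peripheral nerve, had 102 and 108 counts (0.36, interval -0.04 to 0.77) and Col26a1 had 41 and 37 (0.13, interval -0.55 to 0.81).

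Chains of the same type of collagen were compared next, because the difference of their log2 ratios does not depend on the scaling of the libraries. Of 11 such pairs, which leave out others such as Col5a2 with Col5a3 and Col9a2 with Col9a3, 7 differed beyond counting error and 4 did not. Col6a1 and Col6a2 differed by -0.02 (Wald interval -0.07 to 0.03) and Col6a1 and Col6a3 by 0.02 (-0.03 to 0.07), so any difference among the main type VI chains was small. The differences of Col4a5 from Col4a6 (-0.07, interval -0.38 to 0.25) and of Col4a3 from Col4a4 (-0.55, interval -1.22 to 0.12) had wider intervals that also included 0. Small differences were resolved on the many counts of Col1a1 and Col1a2 (0.13, interval 0.12 to 0.15), Col4a1 and Col4a2 (-0.12, interval -0.18 to -0.07), Col5a1 and Col5a2 (-0.17, interval -0.22 to -0.12) and Col5a1 and Col5a3 (0.25, interval 0.17 to 0.32). Much larger differences stood in 3 pairs. Col8a1 changed by 2.15 more than Col8a2 (interval 1.88 to 2.43), Col6a5 by 1.70 more than Col6a6 (1.03 to 2.37), and Col11a1 by -1.40 against Col11a2 (-2.02 to -0.77).

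**Figure D4:**
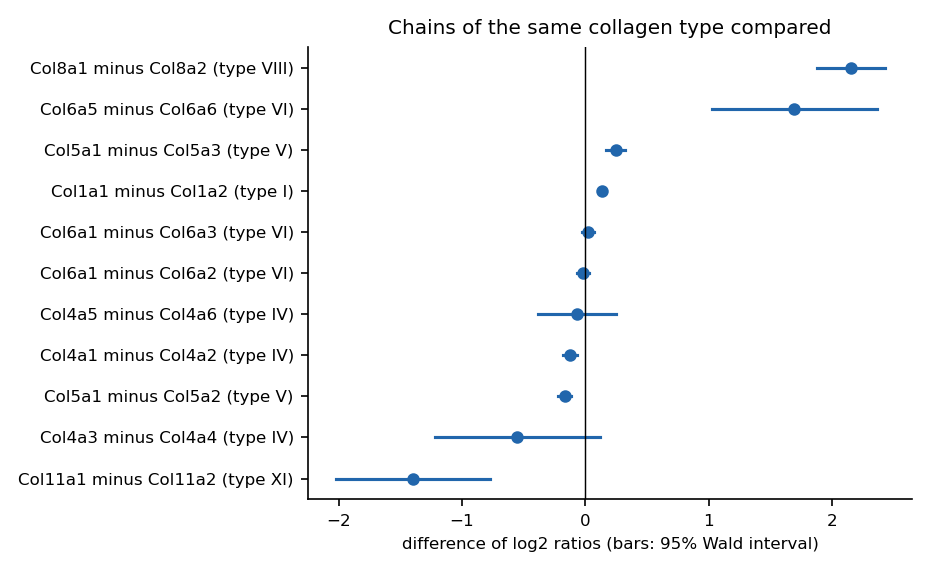
Difference of the log2 ratios, stretched over control, of 2 chains of the same collagen type, with 95% Wald intervals for counting error as bars. The pairs of Col6a1 lie at 0, while Col8a1 minus Col8a2 (2.15) and Col6a5 minus Col6a6 (1.70) lie to the right and Col11a1 minus Col11a2 (-1.40) to the left.

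Levels per length placed the type I and III genes first in both libraries. In FPKM, Col1a1 stood at 1810 in control skin against 3628 in stretched skin, Col3a1 at 1438 and 2795, and Col1a2 at 1043 and 1905. The next members were far lower, with Col6a1 at 197 and 344 FPKM. The FPKM of Col1a1 was 1.74 times that of Col1a2 in control skin against 1.90 times in stretched skin, but with the length of the longest transcript in place of all exons these ratios were 0.827 and 0.907, so the order of both type I genes was not settled by the counts. The FPKM of Col8a1 was 0.69 times that of Col8a2 in control skin against 3.07 times in stretched skin, and with the longest transcript these ratios were 1.02 and 4.54. Spearman's rho between mean level and log2 ratio was 0.39 over the 42 members and -0.02 over all 16255 genes. The number of exons (rho -0.20) and the exon length (rho 0.06) were weakly related to the ratio across members. Both measures of a member come from the same 2 libraries, and members are not independent.

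The genes that make, trim, link and bind collagen were counted beside the chains, and their counts are to be read against the 18.1% of all genes that were higher and the 33.5% that were lower. Of the 15 genes of hydroxylation and glycosylation, which modify the chains in the endoplasmic reticulum, 13 were higher (86.7%) and 0 lower, with a median log2 ratio of 0.48. The largest was that of the prolyl hydroxylase gene P4ha3, with 16 and 181 counts (3.78, interval 3.04 to 4.62), followed by Plod1 and P3h3 (both 0.64), while P4hb, the subunit shared by the collagen prolyl 4-hydroxylases, stood at 0.21 and Colgalt2 had the lowest value (-0.48, interval -1.19 to 0.22). Of 4 measured genes of folding and secretion 3 were higher (75.0%), Fkbp10 (0.83), Mia3 (0.13) and the collagen chaperone gene Serpinh1, with 12083 and 13348 counts (0.42, interval 0.39 to 0.46), and Sec23a stood at -0.02. Of 7 genes of propeptide trimming 3 were higher (42.9%) and 1 lower (14.3%). Adamts2, which removes the amino end of type I and III procollagen, rose from 3007 to 5326 counts (1.11, interval 1.04 to 1.17). Bmp1 (0.31), which cuts the carboxyl end, and its enhancer gene Pcolce (0.84) were also higher, and Adamts3, a relative of Adamts2, fell from 80 to 31 (-1.09, interval -1.73 to -0.47).

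All 5 crosslinking genes of the lysyl oxidase family were higher, with a median of 0.87. Lox led them with 2914 counts in control skin against 8730 in stretched skin (1.86, interval 1.80 to 1.92), Loxl4 (0.92) and Loxl1 (0.87) followed, and Loxl2 had the smallest ratio (0.42). Of 7 fibril regulators 6 were higher (85.7%), among them Tnxb (0.41). The small proteoglycan genes split between Fmod, with 254 and 1106 counts (2.40, interval 2.21 to 2.61), and Bgn (1.55), which were upregulated by the rule of the study, and Lum (0.25) and Dcn (0.06), which changed little. Of the 9 receptor genes 5 were higher (55.6%) and 3 lower (33.3%, close to the 33.5% of all genes), from -1.24 for the integrin gene Itga2 to 4.16 for the leukocyte receptor gene Lair1, with 4 and 59 counts. Mrc2 (0.70), Itga11 (0.42) and Ddr2 (0.36) were among the higher ones, and Itga1 (-0.45) and Ddr1 (-0.22) were the other lower ones. All 6 genes of collagen-degrading proteases were higher, with a median of 1.02, but the interval of Mmp9 (0.32, interval 0.01 to 0.64) included 0 with keratin and muscle genes left out of the totals. Ctsk rose from 1542 to 3181 counts (1.33), Mmp2 from 5350 to 7257 (0.72) and Mmp14 from 2963 to 3973 (0.70), and the collagenase genes Mmp13 (4 and 29 counts) and Mmp8 (4 and 18) were measured on few reads.

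The fibroblast markers were higher as well, most of them by less than the type I and III genes. All 8 were higher, with a median of 0.32 and a range from 0.06 for Dcn to 1.10 for Fbln1, with Mfap5 at 0.79, and their summed level was 2833 CPM in control skin against 3347 CPM in stretched skin. Pdgfra, a receptor of dermal fibroblasts, had 1781 and 1659 counts (0.18, interval 0.08 to 0.28), and Pdgfrb, which pericytes share, had 1166 and 1828 (0.93, interval 0.82 to 1.04). All 6 adipocyte markers were lower, against 33.5% of all genes, from -0.84 for Plin1, -0.82 for Lep and -0.78 for Cidec to -0.56 for Fabp4, with a median of -0.78 and a summed 1217 CPM in control skin against 772 CPM in stretched skin. All 8 macrophage markers were higher (median 1.30, from 670 to 1582 CPM in sum), from Cd163 (0.80) to Cd68 (1.47), Adgre1 (1.56) and Fcgr1 (2.68). Of the 6 Schwann cell markers 2 were higher, which is 33.3% against 18.1% of all genes, and S100b was lowest (-0.38, interval -1.05 to 0.28). Their median was 0.14, and their sum went from 435 to 478 CPM. None of the markers of fibroblasts, adipocytes, macrophages or Schwann cells was at 0 in either library. How much of the rise of the fibrillar genes went with these cell types was not tested.

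**Figure D5:**
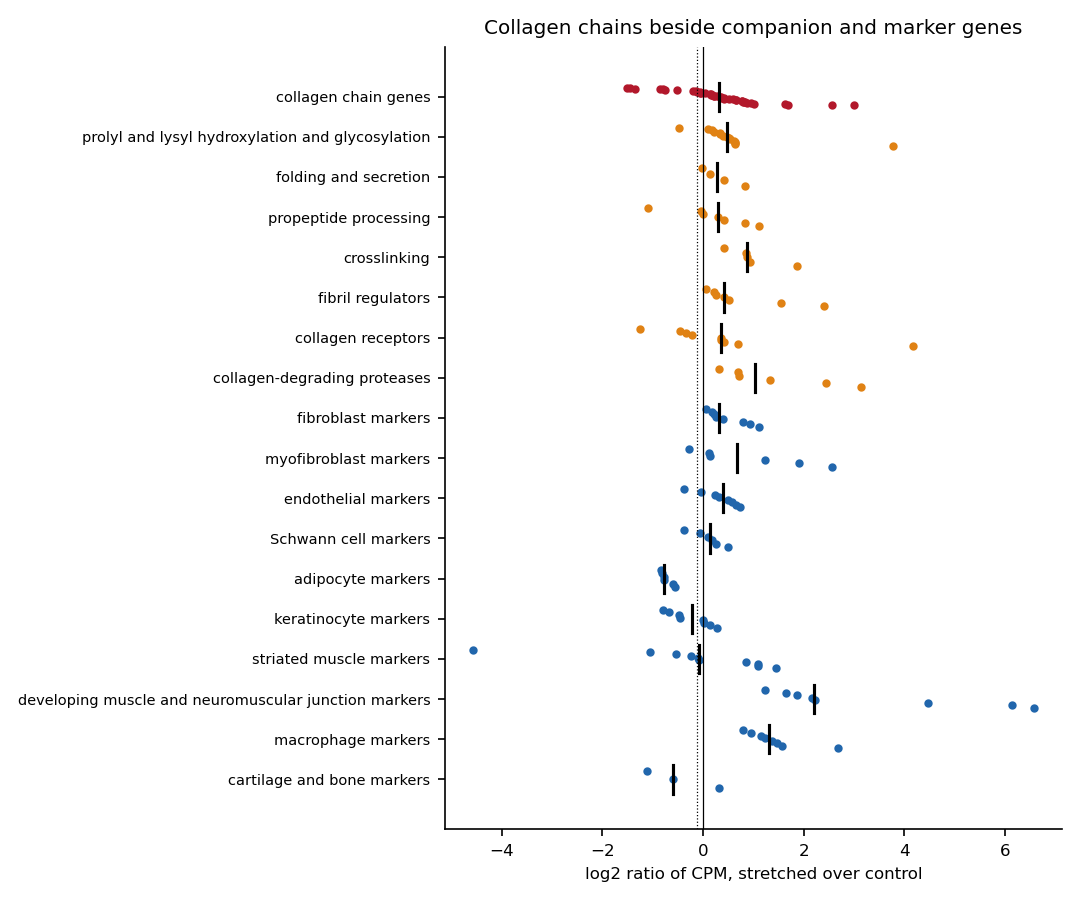
Log2 ratio of CPM, stretched over control, of the collagen chain genes (red), the genes that process and bind collagen (orange) and the cell type markers (blue), each point 1 gene above 3 counts and each black bar the median of its list. The dotted line is the median of all genes; the crosslinking (median 0.87) and collagen-degrading genes (1.02) lie wholly to the right of 0 and the adipocyte markers (-0.78) wholly to the left.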

How the data were processed

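The authors filtered single-end reads with the FASTX-Toolkit and aligned them with TopHat2 to mm10. They deposited raw counts of reads per gene symbol for each library, without normalization. The counter, its annotation and its use of strand are not given in the sources used here, so antisense overlaps cannot be separated. FPKM was computed from these counts with the library totals and the exons of GENCODE M21, which gave a length for 98.4% of symbols, and 1 was added before the rule of the study was applied (EV, the product of both values, above 10). Ratios of CPM carry exact Clopper-Pearson intervals at 95%, with smaller counts set to a floor of 3. Differences between chains or classes carry Wald intervals. No member shared 10% or more of its 76-base stretches with another gene, and the largest share was 4.22% (Col9a3).

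The members, classes and lists were chosen with earlier results of these data known, and the chain pairs after the counts were seen. All members are named, and of each list its extremes and up to 3 genes per direction with at least 100 counts and an interval excluding 0. Other list genes, such as P4hb, Lum, Pdgfra, Acta2, Krt5, Musk and Mmp8, were named after their values were seen. Some list genes that the rule would name are not reported here. Promoters came from RefSeq (GRCm38.p6), and 33 of 42 members matched. The alternatives were 5 scalings, pseudocounts, filters, CPM for FPKM and transcript length. Intervals and calls were tested on simulated data. Python 3.11.15 (numpy 2.4.6, pandas 2.3.3, scipy 1.17.1, matplotlib 3.10.9), R 4.3.3, edgeR 4.0.16 and DESeq2 1.42.0 were used.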

Additional observations from a re-analysis of the deposited data

How the results depend on the processing

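Scaling adds 1 shift to every log2 ratio, 0.10 with TMM (edgeR), 0.11 with median of ratios (DESeq2), 0.10 with the upper quartile, 0.06 with totals without the 50 most counted genes and -0.02 with totals without keratin, keratin-associated and striated muscle genes. In that order the log2 ratio of the fibrillar sum was 1.03, 1.04, 1.03, 0.99 and 0.91, and without Col3a1 it was 0.91. The first 4 gave 0.28, 0.28, 0.28 and 0.24 for the network sum (0.33 without Col4a1), 0.71, 0.71, 0.70 and 0.67 for the fibril-associated sum (0.50 without Col16a1), and 0.30, 0.31, 0.30 and 0.26 for the transmembrane sum, which turned to -0.19 without Col17a1. Within the network sum, which went from 1837 to 2072 CPM at the library totals, Col8a1 alone went from 26.2 to 156 CPM. By the rule of the study 1 member, Col8a1, was upregulated with totals without keratin and muscle genes. With EV above 100, which tests fewer genes, 1 (Col1a1) was upregulated and 0 were downregulated. With CPM in place of FPKM 3 (Col1a1, Col6a5 and Col8a1) were upregulated and 2 (Col11a1 and Col4a3) were downregulated. The cause of these changes was not tested. The 8 other settings gave 2 or 3 upregulated members and 1 downregulated. The members with intervals above 0 numbered 23 to 25 and those below 0 numbered 4 to 6. Of 42 members, 3 (Col11a2, Col4a6 and Col6a6, all with intervals including 0) changed sign under the first 4 scalings. The median of all members ranged from 0.26 to 0.42. That of the network genes turned positive under the first 4 scalings (0.06 to 0.10) and that of the transmembrane genes turned to -0.01 under the last. The length of the longest transcript was chosen after seeing the data. No paired analysis was possible because each condition has 1 library, so leaving a library out was not possible either. Counting error is widest for members under about 100 counts, such as Col6a4, Col9a2, Col13a1 and Col25a1.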
